A study of Mesocricetus auratus with 36 samples.

Results

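Among the genes of the hamster ependymal strip, 111 of 32340 stood higher in each of the 4 groups taken between the start of short days and the last torpor than in both long-photoperiod animals and animals that had stopped hibernating. They were chosen by measured values: a median of at least 2 CPM (counts per 1000000 counts of the library total) in each of SP pre-hib, SP late pre-hib, IBE and SP torpid, and at least 1.4 times the larger of the LP2 and SP refractory medians. Of 13115 genes at that floor, 116 met the rule, and 5 of 8 genes set aside from the group were among these. The cap of 300 genes was not reached. Because the rule used these medians, the height of the 4 season groups over LP2 and SP refractory is a description here and carries no test.

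The study sequenced RNA of the ependymal strip of the hypothalamus, which is rich in tanycytes and was isolated by laser capture. Male golden hamsters gave 36 libraries, 6 animals in each of 6 groups. LP2 animals lived in 14 h of light at 22 °C and were 8 months old. The other 5 groups had been moved to 10 h of light and 8 °C: SP pre-hib for 4 weeks (4 months old), SP late pre-hib for 8 to 12 weeks before any torpor (6 months old), IBE 23 h into a warm interval between torpor bouts and SP torpid 13 h into torpor (both 6 months old, after 3 bouts), and SP refractory after about 20 weeks, at least 2 weeks past the last bout (8 months old). The labels call LP2 and SP refractory animals reproductive and give no strain. Day length and temperature were the same in SP refractory as in the 4 season groups, but age and reproductive state differed from the season groups in both LP2 and SP refractory, so age, reproductive state and season stage cannot be told apart in the shared height of the 4 season groups. Sampling under long photoperiod is described at the start of the experiment as well as at its close, which leaves the age of some LP2 animals uncertain. The files of LP2 4 to 6 are named by another pattern than those of LP2 1 to 3, and whether they form a batch is not stated.

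Tanycytes are radial-glia-like cells at the base of the third ventricle, and they relay day length to the seasonal axis through local thyroid hormone conversion. A refractory animal is one that returns to its summer state on its own although days are still short and cold. SP refractory animals here were still in short, cold days when they were taken. In bulk RNA, fewer cells of a type and less RNA per cell cannot be told apart.

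Libraries held 5.16 to 28.54 M counts (M, 1e6). Ribosomal RNA took over 5% of the counts in 3 libraries: SP refractory 4 (41.8%), SP pre-hib 5 (9.28%) and IBE 6 (7.21%). They are called the rRNA-rich libraries. Ribosomal counts lower the share left for other genes, but not every other value was lower there. Mitochondrial genes took 18.3%, 11.8% and 14.3% of their counts, against 2.02% to 3.42% in the other libraries. Casq1 was at 14.5 CPM in SP refractory 4, with the next SP refractory library at 4.1 CPM. Within SP torpid, animals 5 and 6 stood apart: they were the 2 highest of the 6 torpid libraries for 66 of the 111 members (59.5%), and for 19.6% of the 13115 genes at the floor. The next counts leave out the set-aside genes. Without the rRNA-rich libraries 100 genes met the rule, 88 of them members. The 23 members that no longer met the rule included Bcam, Col27a1, Gadd45g, Grpr, Irs4, Kcnd1, Kcne5, Mmd, Rasgrp2, Slc25a27, Tns1 and LOC101829167. Without SP torpid 5 and 6, 86 genes met it, 85 of them members, and 26 members did not. Over the 4 other torpid libraries the median of 110 of the 111 members was still above the larger of the LP2 and SP refractory medians, and that of 86 by at least 1.4 times.

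**Figure D1:**
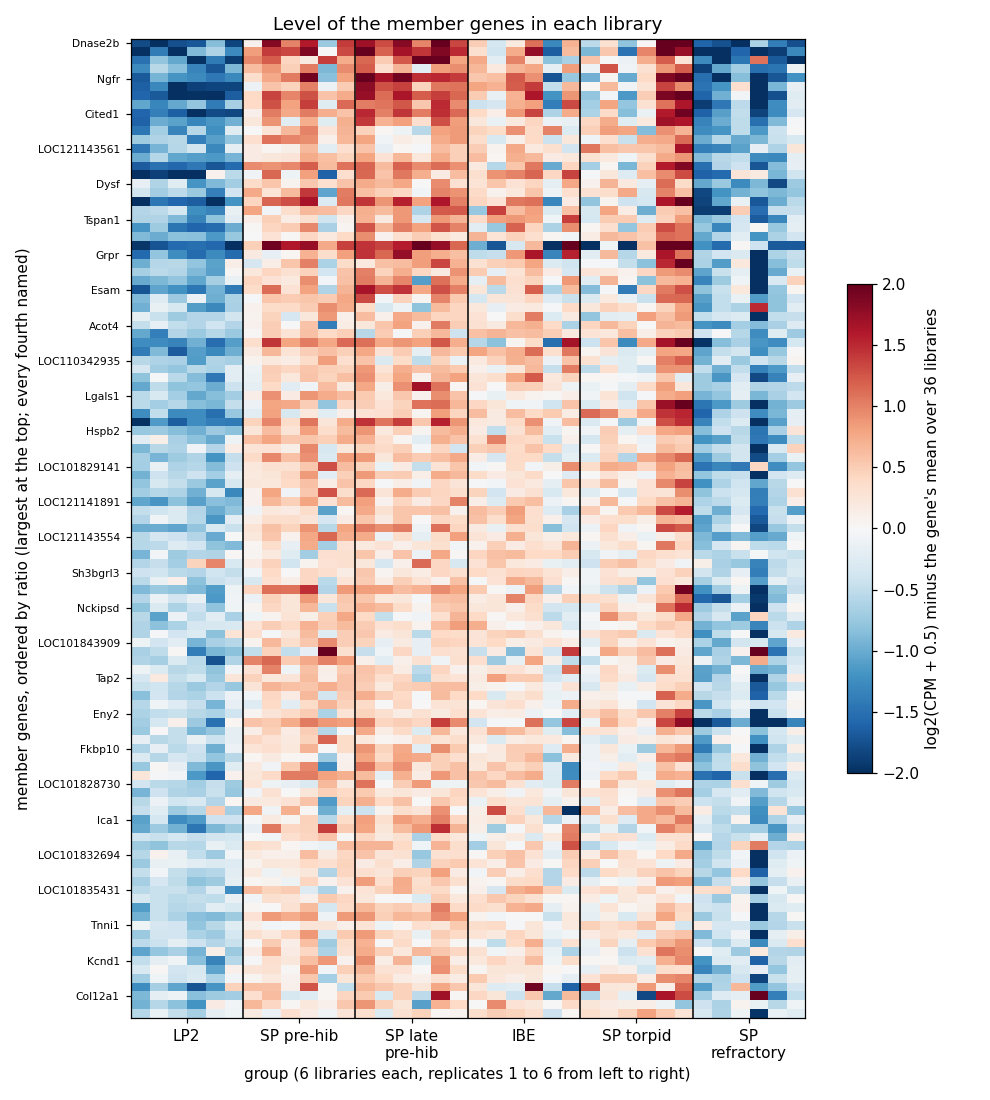
Each row is 1 of the 111 members, each column 1 library in season order; colour is log2(CPM + 0.5) minus the gene's mean over the 36 libraries. LP2 and SP refractory are mostly blue, the 4 season groups between them mostly red, with SP torpid 5 and 6 and the SP late pre-hib libraries the deepest red.

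Ratios, the lowest of the 4 season medians over the larger of the LP2 and SP refractory medians, ran from 1.4 to 3.99 with a median of 1.57, and 16 members reached 2. Over all genes at the floor the median ratio was 0.874. In 5 members every season library lay above every LP2 and SP refractory library, against 0.0279% of all genes tested. These were Tgfb1i1 (a focal adhesion co-regulator), Sez6l, Sh3bgrl3, Tns1 (tensin, which ties integrins to actin) and LOC101827242. Without the rRNA-rich libraries the number was 12, against 0.0948%. Slc25a27, C1rl and Col12a1 lay just inside the ratio threshold, all at 1.4, and Arhgap6, Ramp2 and Trpv2 just outside it, also at 1.4 when rounded. Of the members 106 are protein-coding and 5 are long non-coding RNAs, and 24 carry no informative name. Their median level was 14.9 CPM, against 29 CPM over the genes at the floor, so the group holds mostly genes of modest level: 51 members lay under 10 CPM and 13 over 100 CPM. Per kilobase of exon, LOC101829167 was the highest at 8684 CPM, followed by the named genes Cited1 (386), Sh3bgrl3 (314) and Spon1 (301).

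The steepest member with a known name was Dnase2b, an acid deoxyribonuclease. Its level, given here and below as the group median with the lowest and highest library in CPM, was 2.71 (2.09 to 5.58) in LP2, 24.8 (6.04 to 38.7) in SP pre-hib, 31.1 (21.2 to 49.4) in SP late pre-hib, 13.5 (3.98 to 23.1) in IBE, 11.9 (5.77 to 85.3) in SP torpid and 2.97 (1.17 to 6.59) in SP refractory. LP2 and SP refractory stayed under 7 CPM throughout, and 21 of the 24 season libraries were above all 12 of them. Its span overlaps that of LOC101827959, a member on the opposite strand, and counting ignored strand, so reads of the pair may be mixed.

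Genes known best from striated muscle made up 10 of the members, a grouping noticed after the members were seen. Cpt1b, the muscle form of the enzyme that lets long-chain fatty acids into mitochondria, stood at 5.63 (3.44 to 8.27) in LP2, 21.3 (6.43 to 25.7) in SP pre-hib, 21.5 (10.6 to 29.3) in SP late pre-hib, 20.1 (10.9 to 22.5) in IBE, 19.3 (11.6 to 30.4) in SP torpid and 5.02 (3.06 to 11.5) in SP refractory. Its 4 season medians were almost level with each other, between 19.3 and 21.5 CPM, and the lowest was 3.43 times the LP2 median. Dhrs7c, a dehydrogenase of the sarcoplasmic reticulum, stood at 2.89 (0.963 to 5.06) in LP2, 21 (8 to 30.4) in SP pre-hib, 25.1 (19 to 36.6) in SP late pre-hib, 11.5 (2.23 to 28.4) in IBE, 14.1 (2.58 to 35.1) in SP torpid and 1.7 (0.954 to 2.98) in SP refractory. Here the season groups were uneven, with SP late pre-hib highest and single IBE and SP torpid libraries down in the LP2 range.

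Ckm, muscle creatine kinase, which buffers ATP, stood at 23.1 (16.5 to 36.6) in LP2, 46.6 (27.3 to 53.6) in SP pre-hib, 54.3 (40.7 to 72.9) in SP late pre-hib, 41.9 (28.2 to 55.1) in IBE, 45.4 (38.1 to 69.3) in SP torpid and 21.8 (5.81 to 32.6) in SP refractory. Dysf, dysferlin, which reseals torn plasma membrane, stood at 10.2 (6.87 to 14.4) in LP2, 22.5 (17.2 to 24.3) in SP pre-hib, 26.7 (16.4 to 31.6) in SP late pre-hib, 21.1 (14.3 to 28.1) in IBE, 19.9 (14.3 to 35.9) in SP torpid and 8.16 (4.27 to 9.67) in SP refractory. Mef2c, a transcription factor of muscle and of neurons, stood at 138 (100.3 to 168) in LP2, 262 (234 to 315) in SP pre-hib, 242 (201 to 281) in SP late pre-hib, 223 (186 to 309.9) in IBE, 292 (219 to 535) in SP torpid and 140.1 (90.3 to 209) in SP refractory. In all 3 genes the medians of LP2 and SP refractory were close to each other, and 19 to 22 of the 24 season libraries were above all 12 libraries of those 2 groups. At lower levels followed Cav3, the muscle caveolin (2.57 against 1.16 CPM, lowest season median against the larger of the other two), Casq1, a calcium-storing protein (5.41 against 3.1 CPM), Tmod1, which caps actin filaments (2.06 against 1.14 CPM), and Tnni1, slow troponin I (5.64 against 3.96 CPM). Kcnip2, an accessory subunit of Kv4 potassium channels best known from heart, ran 15.9 against 10 CPM.

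The rest of the muscle genes were mixed. From a list of 70 striated muscle genes, written after the members were seen, 26 were at the 2 CPM floor in all season groups; 10 of these are members and the median ratio of the 26 was 0.986. The highest of the 6 group medians was 0.176 CPM for the myosin heavy chain Myh1, 0.112 CPM for the cardiac actin Actc1 and 1.97 CPM for the skeletal actin Acta1, and Myl2, Myf5, Myf6 and Lmod2 were at 0 in all 6 medians. Other contractile genes were present at low levels: over the 6 medians the troponin Tnni3 ran from 6.33 to 8.31 CPM, Tnnc2 from 3.51 to 5.66 CPM, the light chain Mylpf from 3.87 to 5.48 CPM and titin (Ttn) from 1.92 to 2.96 CPM, with ratios of 0.761, 1.06, 0.900 and 0.786. The actinin Actn3 had a ratio of 1.33, and slow troponin I (Tnni1) is itself a member. Among higher genes of the list, Fhl1 (1144 to 1321 CPM over the 6 medians), Casq2 and Nebl had ratios of 0.866, 0.804 and 1.06. Of the 49 genes of the list that edgeR tested, 1 passed between SP refractory and LP2, nebulin (Neb), fitted as higher in SP refractory although its median was 0.489 CPM there, against 0.586 CPM in LP2.

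**Figure D2:**
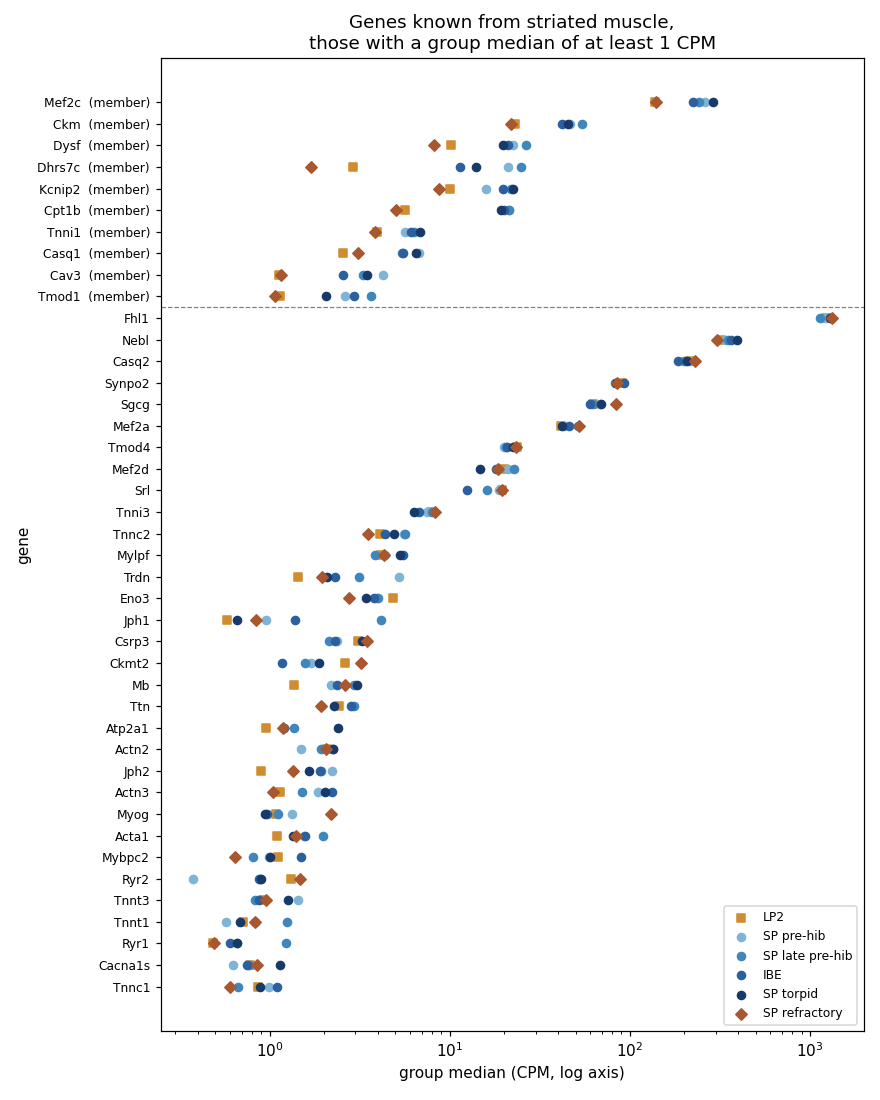
Group medians (CPM, log axis) of the genes of the striated muscle list that reached 1 CPM in any group, members above the dashed line; squares are LP2, circles the 4 season groups and diamonds SP refractory. In the members the square and diamond lie to the left of all circles, from Mef2c (223 to 292 CPM in the season groups, against 138 CPM in LP2 and 140.1 CPM in SP refractory) down to Tmod1; in most rows below the line they are mixed with the circles.

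Small heat shock proteins, chaperones that hold unfolded proteins and steady actin and desmin filaments, contributed 3 members. Hspb7 stood at 6.98 (6.23 to 7.69) in LP2, 42 (33.5 to 50.5) in SP pre-hib, 44.4 (33.6 to 49.1) in SP late pre-hib, 26.9 (10.5 to 45.4) in IBE, 26.1 (11.1 to 78.5) in SP torpid and 12.8 (6.2 to 19.2) in SP refractory. Hspb6 stood at 28.4 (20.4 to 35.4) in LP2, 92.2 (74.1 to 105) in SP pre-hib, 94.1 (58.2 to 112) in SP late pre-hib, 111 (82.5 to 143) in IBE, 73.3 (53.5 to 113) in SP torpid and 42.7 (27.7 to 65.8) in SP refractory. Hspb2 stood at 47.2 (41.9 to 49.6) in LP2, 116 (97.1 to 146) in SP pre-hib, 121 (84.9 to 152) in SP late pre-hib, 88.8 (58 to 128) in IBE, 109.7 (71.4 to 146) in SP torpid and 54 (29.6 to 98.3) in SP refractory. SP refractory was above LP2 at the median in all 3, and its highest libraries reached into the low end of the season range. Of the heat shock and chaperone list 27 genes were at the floor, and these 3 alone were members, 11.1% of the 27. Of all genes at the floor 0.884% met the rule, set-aside genes included. The larger chaperones did not share the pattern: the ratios of Hspa8, Hsp90aa1, Hspd1 and the related small protein Hspb8 were 0.835, 0.802, 0.969 and 0.969. Of the 27 genes tested, 2 passed between SP torpid and IBE, both higher in SP torpid (Dnajb5 and Hsph1), and these were not members. Hspb2 lies 0.09 kb from Cryab, which it faces head to head and which was set aside from the group with a ratio of 3.06.

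Among receptors and ligands, the nicotinic acetylcholine receptor subunit Chrnb4 stood at 11.2 (6.04 to 15.2) in LP2, 77.4 (29.1 to 112) in SP pre-hib, 84 (62.3 to 109.6) in SP late pre-hib, 45.7 (14 to 76.8) in IBE, 32.5 (20.3 to 171) in SP torpid and 17.3 (9.5 to 32.3) in SP refractory. Its partner subunit Chrna3, set aside, lies 1.34 kb away on the same strand and met the rule with a ratio of 2.01. Ngfr, the p75 neurotrophin receptor, stood at 6.5 (4.84 to 8.45) in LP2, 28.9 (9.02 to 64.8) in SP pre-hib, 51 (44.8 to 80.3) in SP late pre-hib, 24.8 (4.65 to 39.5) in IBE, 19.7 (7.96 to 73.5) in SP torpid and 5.13 (2.71 to 8.92) in SP refractory. SP late pre-hib was the high point, with its lowest library at 44.8 CPM, while IBE and SP torpid spread down to LP2 levels. Both ends of 1 peptide family were members, the bombesin-like peptide Nmb (4.58 against 2.74 CPM) and the receptor Grpr (7.53 against 4.12 CPM), which in other mammals prefers the related gastrin-releasing peptide. Without the rRNA-rich libraries Nmb still met the rule and Grpr did not. The other receptors were Ptger1 for prostaglandin E2, Cd40, Ager for glycated proteins, the kinase-dead ephrin receptor Ephb6 and the adhesion receptor Adgrb3, with ratios from 1.46 to 1.88. Potassium channel genes besides Kcnip2 were its Kv4 partner Kcnd1 (7.17 against 5.09 CPM) and the accessory subunit Kcne5 (9.03 against 6.28 CPM). Neither Kcnd1 nor Kcne5 met the rule without the rRNA-rich libraries. None of the ion channel list and 1 of the transmitter receptor list (Chrnb4, of 27 at the floor) were members.

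In transcription and signalling, Cited1, a co-regulator of transcription with no DNA-binding domain of its own, was the most abundant member with a ratio of 2 or more. It stood at 205 (153 to 261) in LP2, 1121 (718 to 1380.0) in SP pre-hib, 1636 (1345 to 1911) in SP late pre-hib, 1008 (436 to 1721) in IBE, 743 (374 to 2592) in SP torpid and 298 (186 to 533) in SP refractory. LP2 and SP refractory had medians of 205 and 298 CPM, no higher than 533 CPM in any library, and 21 of the 24 season libraries were above that. Irf5, an interferon regulatory factor, stood at 9.71 (6.7 to 14.4) in LP2, 50.1 (32.8 to 72.5) in SP pre-hib, 82.1 (48.7 to 125) in SP late pre-hib, 60.5 (25.3 to 95.3) in IBE, 49.7 (34.2 to 92.4) in SP torpid and 17.1 (5.62 to 45.1) in SP refractory. Tesc, the calcium-binding protein tescalcin, stood at 13 (9.27 to 15.4) in LP2, 85.9 (61.8 to 121) in SP pre-hib, 116 (102 to 159) in SP late pre-hib, 71.7 (20.3 to 146) in IBE, 55.7 (20.8 to 207) in SP torpid and 19.5 (7.56 to 45.1) in SP refractory. Irs4, an insulin receptor substrate rich in the hypothalamus, stood at 59.1 (48.9 to 72.6) in LP2, 267 (181 to 383) in SP pre-hib, 253 (234 to 336) in SP late pre-hib, 121 (49.2 to 449) in IBE, 224 (58 to 624) in SP torpid and 70.6 (35.8 to 111) in SP refractory. The IBE and SP torpid libraries of Irs4 and Tesc spread from SP refractory levels upward. In IBE Irs4 reached 449 CPM in the rRNA-rich IBE 6 alone, and the other IBE libraries were at 49.2 to 182 CPM. The highest torpid values of both genes were those of SP torpid 5 and 6. Without the rRNA-rich libraries Irs4 no longer met the rule. Other members of this role were E2f1 of the cell cycle, Creb3l1 of the secretory pathway, the AP-1 factor Fosl2, the stress-induced Gadd45g, Rasgrp2, Rasl11b, Strip2, Nckipsd and Eny2. The immediate early list, of which Fosl2 is the only member gene, had 8 of 26 genes higher in SP torpid than in IBE and 0 lower; Fosl2 was not among them.

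**Figure D3:**
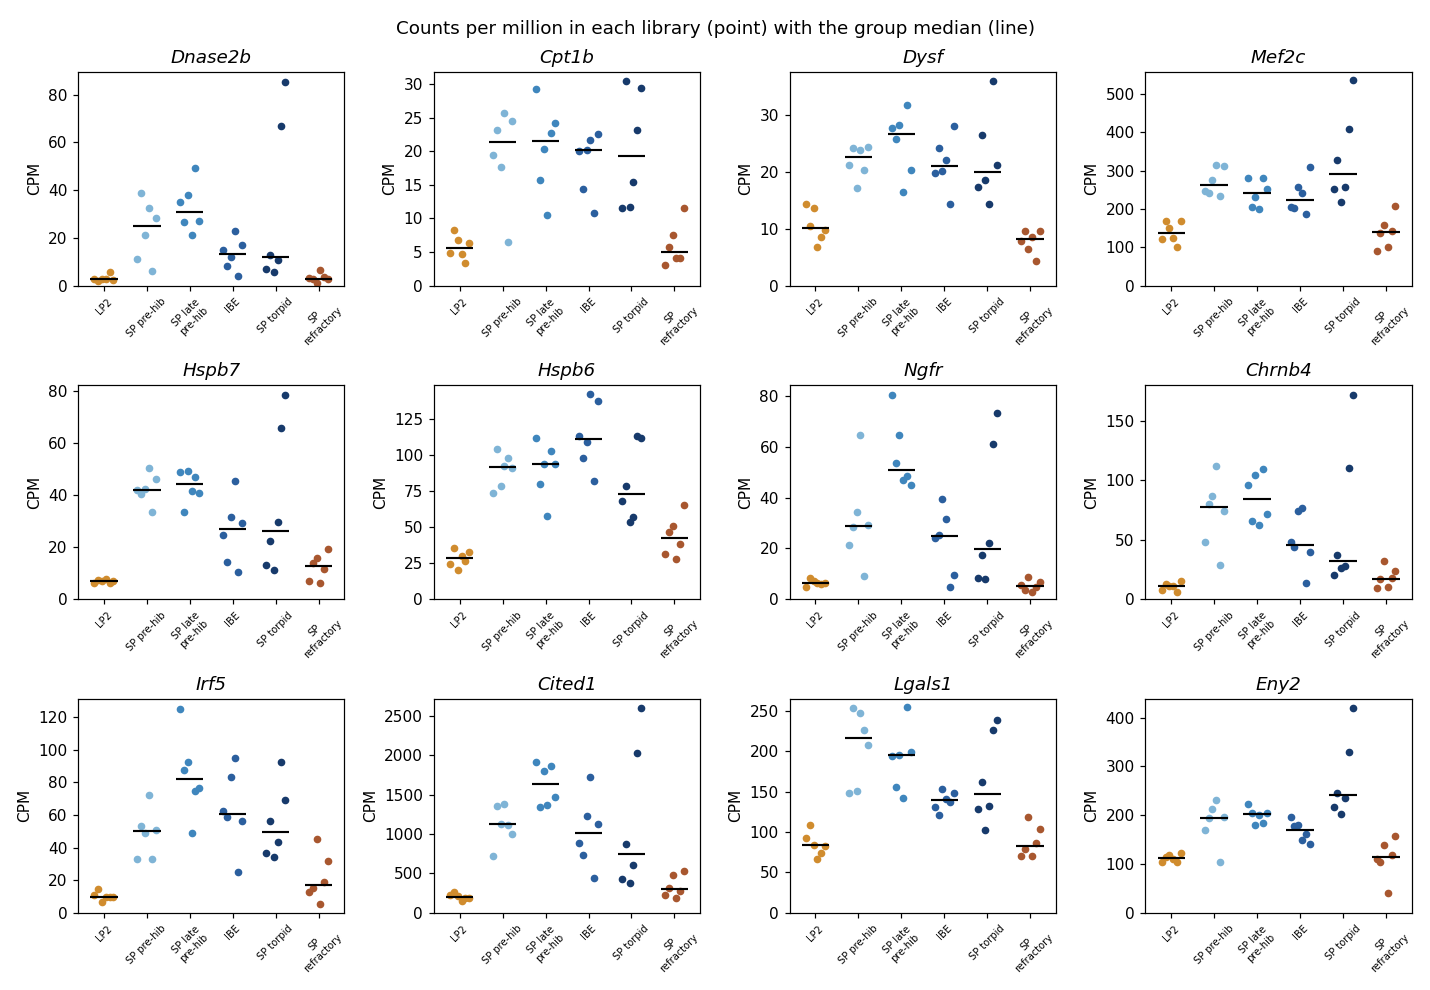
CPM in each library (points, LP2 to SP refractory from left to right) with the group median (line) for 12 members. Points of LP2 and SP refractory lie low in all panels. In every panel but Cpt1b and Dysf the highest torpid points are those of SP torpid 5 and 6.

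Psmb8, a subunit of the immunoproteasome, stood at 22.4 (14.7 to 33) in LP2, 45.3 (42.3 to 52.5) in SP pre-hib, 41.6 (26 to 49.6) in SP late pre-hib, 38.8 (22.1 to 61.2) in IBE, 36.4 (23.5 to 42.9) in SP torpid and 13.4 (10.8 to 21.6) in SP refractory. Tap2, its neighbour 1.90 kb away and 1 chain of the peptide transporter into the endoplasmic reticulum, ran 71.5 against 48 CPM. Its partner Tap1 had a ratio of 1.09, the Psmb8 relatives Psmb9 and Psmb10 had 0.998 and 1.16, Irf1 had 1.36 and B2m 0.870. Of the antigen presentation list, written after the members were seen, 11 genes were at the floor. Of these 4 are members, and the median ratio of the 11 was 1.16. C1r, a serine protease that starts the classical complement pathway, and C1rl lie 1.43 kb apart (9.12 against 4.1 CPM and 2.42 against 1.72 CPM); C1s and C3 had ratios of 0.901 and 0.914. Lgals1, galectin 1, stood at 83.4 (66.2 to 109) in LP2, 217 (148 to 254) in SP pre-hib, 195 (142 to 256) in SP late pre-hib, 139 (122 to 154) in IBE, 147 (102 to 239) in SP torpid and 82.3 (70.3 to 119) in SP refractory. Microglia and macrophage markers, 14 genes summed, were at medians of 321 to 515 CPM in the season groups, against 403 CPM in LP2 and 424 CPM in SP refractory.

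Matrix and membrane members included the most abundant one with a name. Spon1, spondin 1, a secreted matrix protein, stood at 839 (593 to 1268) in LP2, 1272 (892 to 1627) in SP pre-hib, 1297 (725 to 1532) in SP late pre-hib, 1282 (1030.2 to 1492) in IBE, 1336 (858 to 1514) in SP torpid and 787 (246 to 1205) in SP refractory. Gpc3, a glypican that binds growth factors at the cell surface, stood at 119.9 (104 to 197) in LP2, 276 (207 to 409) in SP pre-hib, 392 (100.4 to 461) in SP late pre-hib, 283 (187 to 394) in IBE, 281 (121 to 349.7) in SP torpid and 153 (38.6 to 295) in SP refractory. For both genes single LP2 or SP refractory libraries reached well into the season range, and 13 and 12 of the 24 season libraries were above all of them. Bcam, a laminin receptor, ran 89.4 against 54.3 CPM, the hyaluronan receptor Cd44 ran 29.5 against 19.7 CPM, and the collagen chains Col27a1, Col4a5 and Col12a1 had ratios from 1.4 to 1.5. These 3 collagens held their place by medians only: with group means the ratio was 0.646 for Col12a1, 0.714 for Col27a1 and 0.971 for Col4a5. Col12a1 reached 25.6 CPM, Col27a1 15.1 CPM and Col4a5 9.49 CPM in SP refractory 4, the library with 41.8% ribosomal RNA. Without the rRNA-rich libraries Col12a1 and Col4a5 still met the rule by medians, and Col27a1 and Bcam did not. Hapln3, which links hyaluronan to proteoglycans, stood at 2.34 (0.929 to 3.85) in LP2, 6.45 (5.3 to 7.77) in SP pre-hib, 6.25 (4.86 to 10.1) in SP late pre-hib, 3.46 (1.86 to 9.71) in IBE, 5.51 (3.25 to 13.4) in SP torpid and 0.549 (0 to 1.53) in SP refractory. Of the 57 matrix and adhesion genes of the list at the floor, Hapln3 and Col12a1 were members.

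Esam, an adhesion molecule of endothelial junctions, ran 28.1 against 15.7 CPM. The other 8 endothelial markers summed to medians of 88.1 to 95.4 CPM in the season groups, against 73.8 CPM in LP2 and 86.6 CPM in SP refractory. Of these Kdr alone had a ratio above 1 (1.16), at 50.6 to 65.4 CPM in the season groups, against 35 CPM in LP2. Cldn5, Pecam1, Flt1, Cdh5, Tek, Emcn and Vwf had ratios below 1 (0.512, 0.506, 0.776, 0.559, 0.261, 0.601 and 0.691).

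Among enzymes, Abat, which breaks down the transmitter GABA, stood at 476 (348 to 580.5) in LP2, 839 (577 to 1206) in SP pre-hib, 993 (731 to 1205) in SP late pre-hib, 768 (559 to 871) in IBE, 762 (633 to 1082) in SP torpid and 477 (143 to 555) in SP refractory. LP2 and SP refractory were almost level with each other at the median, and 22 of the 24 season libraries were above all 12 of theirs. Smpdl3b, a sphingomyelinase-like lipase, ran 8.84 against 3.24 CPM, and Acot4, a peroxisomal thioesterase of acyl-CoA, ran 2.01 against 1.16 CPM. In the fatty acid and lipid list Cpt1b was the 1 member of 42 genes at the floor. Abat and Cpt1b kept their place in all 36 repeats that left out 1 library.

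The groups that the rule did not set against each other could be tested, by edgeR's quasi-likelihood test with Benjamini-Hochberg adjustment over 17926 genes. The rule bounds the medians of the 4 season groups from below and those of LP2 and SP refractory from above, so members low in 1 season group, or high in LP2 or SP refractory, could not be among the 111, and this limits the differences that the tests could find. Among the 4 season groups 4 of 111 passed a test of any difference, 3.60%, against 4.71% of all genes tested. Among these were Eny2 (adjusted p = 0.00735), Mmd (0.0304) and LOC101829167 (0.05, under the threshold before rounding). Eny2, a subunit of the SAGA and TREX-2 complexes that couple transcription to mRNA export, stood at 113 (104 to 123) in LP2, 195 (104 to 231) in SP pre-hib, 202 (179.9 to 222) in SP late pre-hib, 170.0 (141 to 197) in IBE, 241 (202 to 419) in SP torpid and 115 (40.5 to 157) in SP refractory. Its medians lay between 170.0 and 202 CPM up to IBE and were highest in SP torpid, where the lowest library exceeded the highest IBE library. Mmd, a membrane protein of the progestin and adipoQ receptor family, stood at 20.4 (18.1 to 25.8) in LP2, 61.2 (32.7 to 63.9) in SP pre-hib, 58.7 (49.1 to 67.8) in SP late pre-hib, 34.9 (25.6 to 40.7) in IBE, 40.3 (28.4 to 61.2) in SP torpid and 24.5 (6.2 to 35.8) in SP refractory. Its IBE libraries were all below its SP late pre-hib libraries. Without SP torpid 5 and 6 the count was 12, or 10.8% of the 111, against 3.55% of 18429 genes. Eny2 (adjusted p = 0.350) was no longer among the 12, whereas Mmd (0.0112) was. With 1 library left out at a time, Eny2 passed in 23 of 24 fits (0.0756 without SP torpid 6), Mmd in 15 (highest 0.0776, without IBE 5) and LOC101829167 in 4 (highest 0.122, without SP pre-hib 5). By median, 52 members were highest in SP late pre-hib and 6 lowest there, while 40 were lowest in SP torpid and 38 in IBE; of all genes at the floor 31.9% were highest in SP late pre-hib and 17.2% lowest there, 38.6% were lowest in SP torpid and 24.6% in IBE.

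Between SP late pre-hib and SP pre-hib 0 of 111 members passed, as did 0.0% of all genes. Unadjusted p was under 0.05 for 7 members (6.31%) and for 4.12% of all genes. DESeq2 and limma voom called 0 members, against 0.0223% and 0.0558% of all genes. The median log2 fold change of the members was 0.08, against -0.01 over all genes. Nmb came nearest, at 0.72 ± 0.24 (adjusted p = 0.728).

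Between IBE and SP late pre-hib 0 members passed, as did 0.0% of all genes. The members' median log2 fold change was -0.19, against 0.01 over all genes, and 76 of 111 lay below 0. Unadjusted p was under 0.05 for 18 members with lower and 2 with higher IBE values, 18% together, against 6.16% of all genes. DESeq2 called 1 member, Mmd (0.901%, against 0.179% of all genes), and limma voom 9 (8.11%, against 3.07%), all lower in IBE. Mmd was at -0.71 ± 0.18 (adjusted p = 0.248), and at -0.81 without the rRNA-rich libraries (adjusted p = 0.0111; range 0.00202 to 0.788 over all alternatives). Ngfr was at -1.29 ± 0.45 (adjusted p = 0.502).

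Between SP torpid and IBE 1 member passed, Eny2, higher in torpor, 0.901% of the 111, against 1.13% of all genes higher, 2.93% lower and 4.06% in either direction. Its log2 fold change was 0.72 ± 0.16 (1.65-fold, adjusted p = 0.00371). It passed in all 12 fits that left out 1 library, with adjusted p from 0.00172 to 0.0230, but not without both SP torpid 5 and 6 (0.42, adjusted p = 0.116; range 0.000154 to 0.116 over all alternatives). Tmem150a (1.18 ± 0.36, adjusted p = 0.0542) was just short of the threshold; it lies over Rnf181 on the other strand, and its value was -0.09 without SP torpid 5 and 6. In the fit without those 2 animals a single member passed, 0.901% of the 111, against 3.32% of 18429 genes in either direction. It was Hspb6, lower in torpor (-0.83, adjusted p = 0.0103, range 0.0103 to 0.372 over all alternatives). With those 2 animals Hspb6 was at -0.50 ± 0.19 (adjusted p = 0.152). Without the rRNA-rich libraries 7 members passed (6.31%), all higher in torpor, against 8.94% of all genes in either direction and 3.32% higher, among them Irs4 and Mef2c; these were at 0.70 ± 0.42 and 0.51 ± 0.19 with all libraries (adjusted p = 0.468 and 0.145), and Irs4 was at -0.19 without SP torpid 5 and 6.

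Between SP refractory and LP2 0 members passed, against 0.329% of all genes (0.0781% higher and 0.251% lower). Unadjusted p was under 0.05 for 18 members with higher and 4 with lower SP refractory values, 19.8% together, against 13.0% of all genes. DESeq2 called 4 members (3.6%, against 1.84% of all genes), 3 higher and 1 lower. The count by limma voom was 2 (1.8%, against 1.04%), 1 each way. The members' median log2 fold change was 0.16, against 0.03 over all genes, and the SP refractory median was above that of LP2 in 68 of 111 members and below it in 43, and above it in 40.1% of genes at the floor. Nearest to the threshold were Irf5 (1.16 ± 0.30, adjusted p = 0.0547), Hspb6 (0.73 ± 0.19, adjusted p = 0.0548) and Hapln3 (-1.71 ± 0.45, adjusted p = 0.0547), Irf5 and Hspb6 higher and Hapln3 lower in SP refractory. A p that misses the threshold does not show that the 2 groups were alike. The members' log2 fold changes ran from -1.71 to 1.87.

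**Figure D4:**
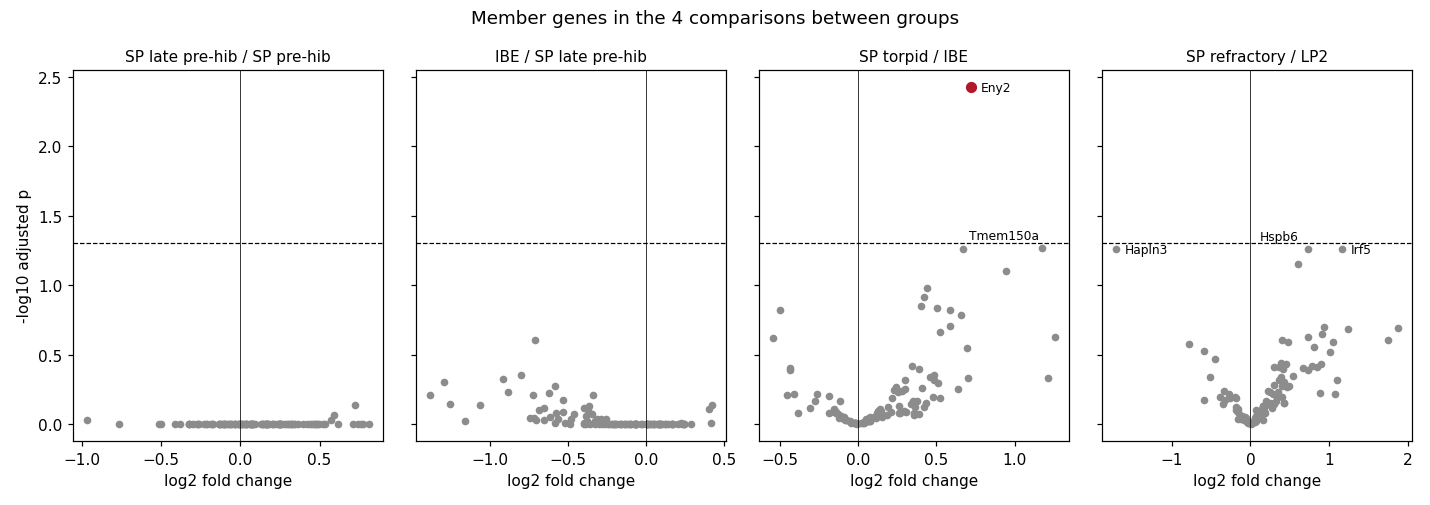
Log2 fold change (first-named group over the second) and -log10 adjusted p of the 111 members in 4 comparisons; the dashed line marks an adjusted p of 0.05. Eny2 in SP torpid over IBE, at 0.72, is the only point above the line.

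Within groups, the members varied together from animal to animal. The deviations of log2 CPM from the group means, which remove the season pattern that chose them, had a median Pearson r of 0.31 over the 6105 pairs of members in 36 libraries, against 0.03 over pairs of the 13115 genes at the floor. Without the rRNA-rich libraries it was 0.42 against 0.00, and r exceeded 0.5 in 38.1% of member pairs, against 6.91% of pairs of genes at the floor; over all 36 libraries these shares were 25.2% and 15.6%. Without SP torpid 5 and 6 as well it was 0.34 (31 libraries), and Spearman values lay between 0.33 and 0.41. These are descriptions: pairs share libraries, depth and cell content, and no p is given. Of the 111 members 75 had a median r above 0.4 with the other members and 6 one below 0, among them Tnni1 (-0.23) and Cd40 (-0.14). The closest partners were Cited1 and Tesc (r = 0.94), Hspb7 and Irs4 (0.94) and Hspb7 and Tesc (0.93). Cpt1b went most closely with Mef2c (0.85), and Mef2c and Sv2a had the highest median r with the rest, 0.64 each. The set-aside genes Chrna3 (0.92), Thrb (0.89), Inhba and Pygm (0.85 each) followed the mean of the members, whereas Dct was at -0.22, and at 0.28 without SP torpid 5 and 6.

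**Figure D5:**
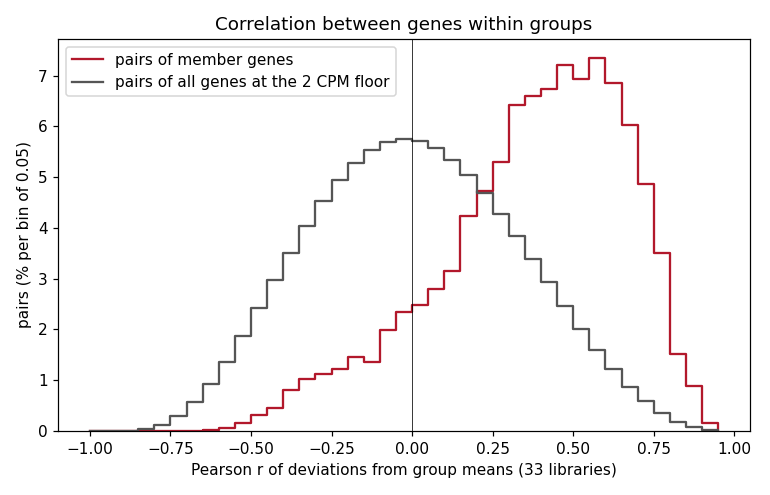
Distribution of Pearson r between genes after group means were removed, in the 33 libraries that are not rRNA-rich, for pairs of members (red) and pairs of all genes at the floor (grey). The red curve lies to the right, with 87.7% of member pairs above 0.

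Cell type markers moved with this within-group level, given as r with the members' mean over 33 libraries. Of 24 motile cilia markers 23 were below 0 (median -0.46, Pifo -0.75), as were all 8 oligodendrocyte markers (median -0.50). Without SP torpid 5 and 6 as well the counts were 23 of 24 and 7 of 8. Most other lists also lay mostly below 0 over 33 libraries. These were microglia and macrophage (12 of 14, median -0.45), endothelial (7 of 8, -0.43) and oligodendrocyte precursor markers (4 of 5, -0.41). Neuron (14 of 17), mural and fibroblast (8 of 12), astrocyte (7 of 10) and erythrocyte markers (3 of 3) followed, while pituitary markers were split (4 of 9). Of the tanycyte markers 13 of 19 lay above 0 (median 0.09), and 15 of 19 without SP torpid 5 and 6 as well (median 0.36; Rax 0.50, against 0.03 with them). Over 33 libraries these included the thyrotropin receptor Tshr (0.65) and the factor Lhx2 (0.62), while Gpr37l1 was at -0.68 and Dio2 at -0.07. Astrocyte markers ran from -0.76 (S100b) to 0.66 (Aldh1l1). Between groups, cilia markers summed to medians of 5120 to 5695 CPM in the season groups, against 5744 CPM in LP2 and 6391 CPM in SP refractory. Tanycyte markers summed to 3794 to 4184 CPM in the season groups, against 5087 CPM in LP2 and 3897 CPM in SP refractory, with 17 of the 19 at the floor. This sum counts Gpr37l1 and Ntsr2, which are also used as astrocyte markers. They were at 1116 and 239 CPM in LP2, against 375 to 605 and 51.7 to 86.3 CPM in the season groups. Vim, the highest of the list, was at 1176 CPM in LP2 and 1155 to 1443 CPM in the season groups. Markers of pituitary (medians of 111 to 119 CPM in the season groups, against 407 CPM in LP2 and 241 CPM in SP refractory) and of erythrocytes (3.60 to 5.38 CPM, against 16.1 and 15.7 CPM) were lower in the season groups, where the members are higher. In SP torpid 5 and 6 cilia markers summed to 5439 and 5160 CPM, under the 5606 to 6876 CPM of the 4 other torpid libraries. Oligodendrocyte markers (263 and 277, against 287 to 395 CPM) were lower there too. So were microglia and macrophage markers (376 and 293, against 412 to 484 CPM). In no other marker list did both animals lie outside the range of the 4 others. The part of cell content in the members' levels was not tested.

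Most members lie apart in the genome, on 36 scaffolds of assembly BCM_Maur_2.0. Within 100 kb of each other were 11 pairs, set-aside genes that met the rule included. Besides the pairs named above these were Irs4 and Col4a5 (20.9 kb), Rasgrp2 and the set-aside muscle phosphorylase gene Pygm (0.68 kb), Acot4 and LOC101843592, and 3 neighbouring genes without informative names. A gene on the opposite strand lay over 21 members, among them Ager (Rnf5), Tmod1 (Tstd2) and Lgals1, and with unstranded counts their reads may be mixed. Of the set-aside genes Cryab (3.06), Pygm (2.56), Chrna3 (2.01), Hspb1 (1.73) and Thrb (1.64) met the rule. Inhba (0.937), Trpc5 (1.16) and Dct (0.274) did not, and the SP torpid median of Inhba was 10.8 CPM, against 11.5 CPM in SP refractory.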

How the data were processed

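Raw counts per gene were deposited by the authors, 1 column for each of 36 libraries; they were made with featureCounts 2.0.1 over exons of read pairs, with no strand option and RefSeq annotation of BCM_Maur_2.0, per the file headers, from alignments whose file names carry STAR (version not given in the sources used here). Libraries came from laser-captured tissue, per the labels' protocols. CPM was computed from these counts over the library total, and 31895 of 32340 genes were matched to RefSeq names. Replicates are separate animals. Tests used edgeR 4.0.16 (filterByExpr, TMM, robust quasi-likelihood fit of all 36 libraries, 17926 genes, Benjamini-Hochberg adjustment, threshold 0.05) in R 4.3.3; DESeq2 1.42.0 and limma 3.58.1 (voom with quality weights) were alternatives, and the fit was tested on simulated data. Within-group correlations used log2 CPM with a prior count of 2.

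The members and gene lists were chosen with earlier results of these data known, and the striated muscle, antigen presentation and complement lists were written after the members were seen. Genes were named by rule: the 20 largest ratios, the 6 highest levels, members of the lists, up to 8 members passing in each test, the 3 nearest the threshold on each side, and the 8 set aside. Others were named for their role after their values were seen. Same-numbered animals of different groups were not pairs: over 90 pairs of libraries their deviations had a median r of 0.008 (-0.338 to 0.481). Promoter sequences were not used here, and some members and markers are not reported here by name.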

Additional observations from a re-analysis of the deposited data

Results flagged for a closer look

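In the 23 members whose values are given by group, 138 groups of 6 libraries were searched for a single library far from the rest, and 4 had one; chance gives about 1 in 20, or 6.9. Dnase2b was at 5.58 CPM in LP2 5, with the next LP2 library at 2.91 CPM. Irs4 was at 449 CPM in IBE 6, an rRNA-rich library, with the next IBE library at 182 CPM. Gpc3 was at 196.5 CPM in LP2 6, with the next at 136 CPM, and at 100.4 CPM in SP late pre-hib 4, with the next at 344 CPM.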

How the results depend on the processing

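The counts in this paragraph leave out the set-aside genes. The number of genes that met the rule was 179 at a ratio of 1.3 and 70 at 1.5, against 111 at 1.4. Leaving out 1 library at a time gave 95 to 124, of which 94 to 110 were members, and 60 members were kept in all 36 repeats. Group means gave 128 genes (88 members), and TMM library sizes 101 (90). LP2 was split because its files follow 2 naming patterns: LP2 1 to 3 alone gave 109 (98) and LP2 4 to 6 alone 138 (101).

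Members called changed with the tool and the libraries; all-gene counts follow in parentheses. Between IBE and SP late pre-hib they were 0 (0) in edgeR, 1 (32) in DESeq2, 9 (550) in limma voom and 1 (153) without the rRNA-rich libraries, and neuron and oligodendrocyte covariates gave 0 (16). Between SP torpid and IBE they were 1 (728) in edgeR, 5 (1153) in DESeq2, 5 (1927) in limma voom, 10 (691) with the covariates, 7 (1601) without the rRNA-rich libraries, 2 (718) with the groups compared alone, 1 (482) with no filter beyond 1 count, and 1 to 4 (556 to 701) with 1 library left out. Between SP refractory and LP2 they were 0 (59) in edgeR, 2 (165) with DESeq2 size factors, 4 (330) in DESeq2, 2 (186) in limma voom, 1 (64) with the covariates, 1 (95) without the rRNA-rich libraries, 1 (40) with LP2 1 to 3 alone, 0 (6) with LP2 4 to 6 alone, 0 (9) with the groups compared alone, and 0 to 3 (23 to 413) with 1 library left out. Among the season groups they were 4 (844) in edgeR, 7 (1444) in DESeq2, 30 (3890) in limma voom, 2 (607) with no filter beyond 1 count, 11 (892) with the covariates, 7 (2401) without the rRNA-rich libraries, 12 (654) without SP torpid 5 and 6, and 2 to 5 (628 to 1014) with 1 library left out. Between SP late pre-hib and SP pre-hib they were 0 throughout, with 0 to 10 genes in all. The causes were not tested.

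With the replicate number as a block the counts were 0, 0, 1, 0 and 3 for SP late pre-hib over SP pre-hib, IBE over SP late pre-hib, SP torpid over IBE, SP refractory over LP2 and the season groups; 2 of 36 libraries correlated best with their own number, so the numbers give no pairing.

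The median within-group r of 0.313 was 0.336 by Spearman, 0.417 without the rRNA-rich libraries (Spearman 0.410) and 0.336 without SP torpid 5 and 6 as well (Spearman 0.333). Signs changed for Col12a1 (log2 ratio -0.63 with group means and -0.007 without SP torpid 5 and 6) and, in SP torpid over IBE without SP torpid 5 and 6, for Tmem150a (-0.087, adjusted p = 0.934), Irs4 (-0.19, 0.913) and Tcerg1l (-1.002, 0.566; edgeR).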
